A study of Homo sapiens with 8 samples.

Results

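RNA of NALM6 cells after induction of the HMGN1 mutant S20,24E was set against RNA of the wild-type HMGN1 line that had received vehicle, and the level of each transcript was kept apart from its labelling. NALM6 cells are an established line from a human acute lymphoblastic leukaemia of precursor B cells. The comparison takes 5 of the 8 libraries of the series, chosen by their labelled genotype and treatment. Libraries A and B came from the mutant line with 100 ng/ml doxycycline for 6 h (mutant), and libraries A, B and C from the wild-type line with vehicle for the same time (vehicle). Both groups had 100 µM 4-thiouridine in the medium for the last 5 h. The line and the doxycycline differ together, so that the mutant protein, the drug and any lasting difference between the lines cannot be told apart. None of the 8 libraries of the series is labelled as mutant line with vehicle. A group of 3 doxycycline-treated wild-type libraries (induced wild type) entered the model for its estimate of the spread, and their values stand beside the others. The labels speak of biological replicates but do not name separate cultures, so p-values measure the spread between these libraries. Per-library values are given in the order A, B, C.

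HMGN1 is a small chromatin protein that binds the nucleosome core and loosens chromatin packed by linker histone, and its gene lies in the Down syndrome critical region of chromosome 21. Glutamate in place of the serines at 20 and 24 mimics phosphorylation, and the labels describe the mutant as unable to bind nucleosomes properly. In SLAM-seq, 4-thiouridine enters RNA made during the pulse, and after alkylation the labelled bases appear as T-to-C conversions. A level counts old and new RNA together, whereas a conversion rate is higher where more of the RNA present was made during the pulse, which both synthesis and decay set.

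The mutated positions lie near the start of the coding sequence, shown here because the mutant differs from the wild type at these codons. The stretch below is the first 84 coding bases of the reference gene (GENCODE 29, GRCh38, minus strand, spliced over 4 exons between chr21:39348334-39348917). Capitals mark the serine codons at bases 61 to 63 and 73 to 75, numbered as residues 20 and 24 without the initiator methionine.
HMGN1: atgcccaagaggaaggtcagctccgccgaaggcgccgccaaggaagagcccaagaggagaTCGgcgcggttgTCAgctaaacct

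HMGN1 itself had the higher conversion rate in the mutant libraries, while its level was less clearly separated. Its level was 191, 153 and 145 CPM (counts per M reads) with vehicle, 252, 217 and 317 in induced wild type, and 223 and 200 in mutant. The conversion rate was 1.04%, 1.66% and 1.69% with vehicle, 4.09%, 3.24% and 7.12% in induced wild type, and 4.64% and 1.996% in mutant. Mutant and vehicle libraries did not overlap in either measure. The level was 48.1 CPM higher in mutant, 1.29 times the vehicle mean (exact two-sided permutation p = 0.2). The rate was 1.85 percentage points higher, 2.27 times the vehicle mean (exact two-sided permutation p = 0.1, the smallest that 2 against 3 libraries allow). Without mutant A the difference in the rate was 0.53 points. In the table of converted reads HMGN1 stood at 2.64, 6.04 and 5.44 FPKM with vehicle and at 4.15 and 2.62 in mutant, and these libraries overlapped (exact two-sided permutation p = 0.4). The annotation holds 31 processed HMGN1 pseudogenes, so reads may be shared among copies.

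The depth behind the levels ran from 7.99 M to 17.7 M reads over the 8 libraries, with 3.43 M to 7.85 M of them counted to genes. All 10 of the precursor B-cell markers were at or above a mean of 1 CPM, summing to 1531 and 1677 CPM in mutant and 1746, 1803 and 1772 with vehicle. None of 8 T-cell markers (3 at 0, sums of 0.868 to 1.30) or 7 erythroid markers (2 at 0) reached that level. Of 8 myeloid markers 3 did (CSF1R, CD33 and LYZ; sums of 345 to 517; 1 at 0), as did PDGFRB of 9 stromal and muscle markers (sums of 3.02 to 4.96; 4 at 0). In bulk RNA, fewer cells of a type and less RNA per cell cannot be told apart. The median conversion rate of a library was 4.69%, 5.58% and 6.45% with vehicle and 6.54% and 5.19% in mutant, overlapping ranges (difference 0.29 points, exact two-sided permutation p = 0.7). It was lower in mutant without mutant A (-0.38 points) or without vehicle A (-0.15 points). For the tests each library's median conversion was therefore set to 0 on the log2 scale.

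Few genes passed, and levels and labelling moved largely apart from each other. By limma, 4 of 12459 genes (0.0321%) passed in CPM at an adjusted p under 0.05, of which 3 fell (0.0241%) and 1 rose (0.00803%) in mutant, and 446 genes (3.58%) had an unadjusted p under 0.05. In the conversion rate 1 of 6289 genes (0.0159%) passed, and 515 (8.19%) had an unadjusted p under 0.05. Of all genes tested 57.5% lay below 0 in CPM, and 55.0% lay below 0 in conversion. The groups did not overlap in CPM for 1424 genes lower in mutant (11.4%) and 573 higher (4.6%), and in the centred conversion rate for 868 lower (13.8%) and 630 higher (10%). If the library labels were exchangeable, 2 against 3 libraries would separate in a given direction with a probability of 0.1 per gene. Separation alone therefore does not mark a difference. Separation in both measures took every sign combination: 103 genes (1.64%) were lower in CPM and higher in conversion, 94 lower in both, 40 higher in both and 31 higher in CPM and lower in conversion. Across the 6289 genes, which are not independent and share these libraries, the log2 differences in CPM and in conversion had a Pearson correlation of -0.03 and a Spearman correlation of -0.07.

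**Figure D1:**
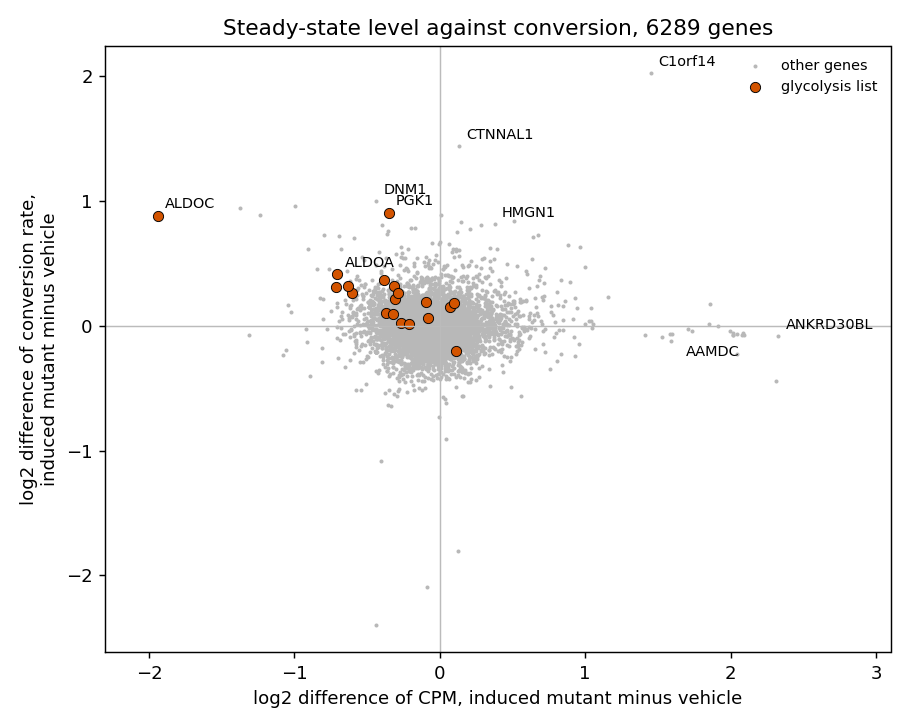
Each grey point is 1 of 6289 genes; the x axis is the log2 difference of CPM and the y axis the log2 difference of the conversion rate, both mutant minus vehicle, and orange points are members of the glycolysis list. ALDOC lies alone at the upper left (-1.94 and 0.88), C1orf14 at the top right (1.45 and 2.02), and the genes with CPM differences near 2, AAMDC and ANKRD30BL among them, lie on the line of no difference in conversion.

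In both measures 1 gene passed, ALDOC (gene ID 230, chromosome 17), which encodes the brain-type aldolase of glycolysis. Its level was 92.9, 103 and 87.3 CPM with vehicle, 87.0, 92.8 and 71.5 in induced wild type, and 21.3 and 26.7 in mutant. Both mutant libraries lay under all 6 libraries of the wild-type line, with or without doxycycline. ALDOC fell by 1.94 on the log2 scale in mutant against vehicle (SE 0.20, limma adjusted p = 0.0309). Its conversion rate was 0.607%, 0.866% and 1.05% with vehicle, 1.11%, 0.745% and 1.36% in induced wild type, and 2.60% and 1.64% in mutant. The rate rose by 0.88 on the log2 scale (SE 0.10, limma adjusted p = 0.0401) and was the only conversion call among the 6289 genes, while 23.8% of those genes had groups that did not overlap. Against induced wild type, a comparison that shares the mutant libraries, ALDOC differed by -1.76 in CPM (adjusted p = 0.0371) and by 0.80 in conversion (adjusted p = 0.0919). Between induced wild type and vehicle it differed by -0.18 and 0.08.

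The other genes that passed in level came from 2 places in the genome. COL5A1 (gene ID 1289, chromosome 9), a chain of type V collagen, stood at 7.31, 13.2 and 11.8 CPM with vehicle, 12.03, 10.9 and 14.6 in induced wild type, and 1.64 and 1.38 in mutant. The uncharacterised LOC101448202 (gene ID 101448202), which overlaps COL5A1 in the RefSeq gene table, stood at 6.30, 8.86 and 8.96 CPM with vehicle, 9.11, 8.14 and 8.84 in induced wild type, and 0.964 and 0.862 in mutant. In both, the mutant libraries lay far under the 6 others, and since the genes overlap they may count the same RNA. COL5A1 fell by 2.19 (SE 0.26, limma adjusted p = 0.0374) and LOC101448202 by 2.23 (SE 0.20, limma adjusted p = 0.0175) on the log2 scale. The fewest reads in a library were 16 for COL5A1 and 10 for LOC101448202. Conversion was not tested for genes with a mean under 10 CPM, but the COL5A1 rate was 1.87%, 1.25% and 1.44% with vehicle, 1.40%, 1.15% and 1.68% in induced wild type, and 5.53% and 2.78% in mutant. The directions of level and rate were those of ALDOC, but the COL5A1 rates in mutant rest on few reads and were not tested. LOC101448202 had a rate of 0.143% in vehicle C and was listed at 0 in the 7 others.

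MYBPC2 (gene ID 4606, chromosome 19), the fast-type myosin-binding protein C of skeletal muscle, was the only gene called higher. It stood at 0.675, 0.955 and 1.01 CPM with vehicle, 0.765, 1.00 and 1.01 in induced wild type, and 7.33 and 4.74 in mutant, from 6 reads in the library with the fewest. MYBPC2 rose by 1.88 on the log2 scale (SE 0.22, limma adjusted p = 0.0374), a scale that understates the fold of a gene this low. Its untested conversion rate was 11.3% and 10.7% in mutant, against 1.75%, 1.90% and 10.2% with vehicle. In the RefSeq gene table MYBPC2 lies next to SPIB, with 0 genes starting between them. SPIB, an ETS transcription factor of B cells, stood at 18.8, 16.9 and 18.5 CPM with vehicle and 24.1 and 27.9 in mutant, groups that did not overlap, with a log2 difference of 0.50 that did not pass (SE 0.18). Of the other striated-muscle genes tested in CPM none passed, and the median of the 10 tested members of that list was -0.15.

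**Figure D2:**
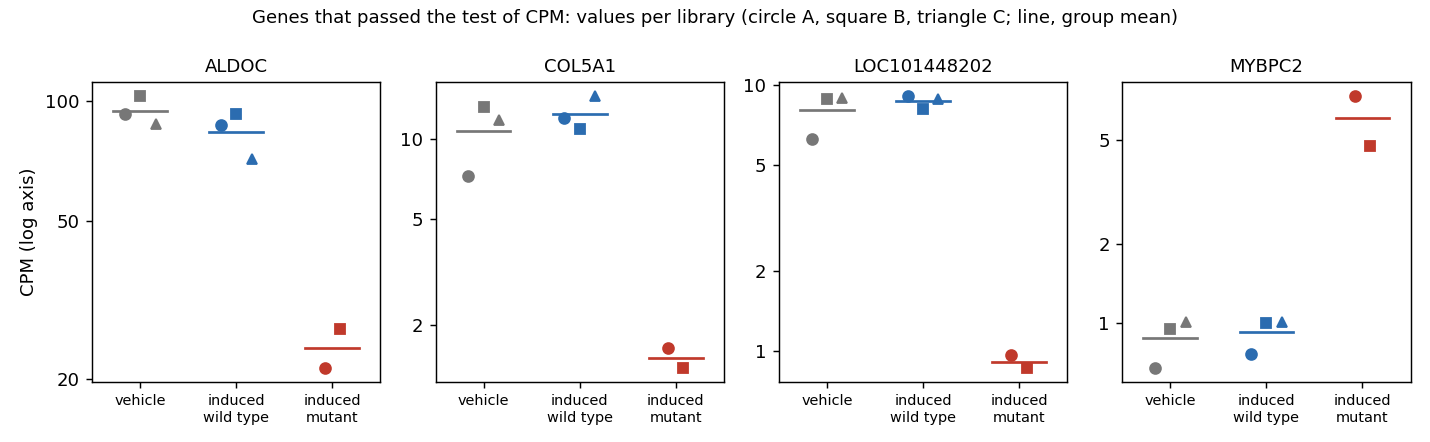
CPM per library on a log axis for the 4 genes that passed, with circles, squares and triangles for libraries A, B and C and a line at each group mean. Mutant libraries lie at 21.3 and 26.7 CPM for ALDOC and at 7.33 and 4.74 for MYBPC2, apart from the vehicle and induced wild type libraries, which overlap each other.

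The 4 CPM calls rested on small groups. Without 1 library at a time, 2 of the calls were left without vehicle A, 1 without induced wild type B, 4 without induced wild type C, and 0 without any single one of vehicle B, vehicle C, induced wild type A, mutant A or mutant B. Across those omissions the log2 differences stayed between -2.09 and -1.78 for ALDOC, -2.43 and -2.04 for COL5A1, -2.37 and -2.15 for LOC101448202, and 1.61 and 2.15 for MYBPC2. The ALDOC conversion call was lost without each of the 8 libraries in turn, with adjusted p from 0.0649 (without induced wild type B) to 0.743 (without mutant A) and differences of 0.77 to 1.00.

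Among genes with the next smallest p-values in CPM, none of which passed, AK1 (adenylate kinase 1, which balances adenine nucleotides) stood at 6.97, 5.90 and 5.63 CPM with vehicle and 2.31 and 1.72 in mutant (log2 difference -1.25, limma adjusted p = 0.25). C8orf73 stood at 8.10, 8.42 and 10.4 CPM with vehicle and 2.41 and 2.67 in mutant (-1.49, limma adjusted p = 0.117). Higher in mutant was MIR663B, which overlaps ANKRD30BL, at 7.72 and 8.88 CPM against 2.59, 1.82 and 2.87 with vehicle (1.45, limma adjusted p = 0.25). The groups of each of these genes did not overlap. LOC101927817 also lay higher in mutant, at 3.28 and 2.59 CPM against 0.562, 0.608 and 0.902 with vehicle (1.22, limma adjusted p = 0.269).

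ALDOC belongs to glycolysis, the pathway that splits glucose into pyruvate and, with lactate dehydrogenase, into lactate. Many of its genes carry hypoxia response elements, short motifs bound by hypoxia-inducible factors, in their promoters. The 250 bases before the start of ALDOC and PGK1, the members with the largest differences in conversion, are shown (RefSeq, GRCh38.p14). ALDOC lies at chr17:28576896-28577145 on the minus strand and PGK1 at chrX:78103998-78104247 on the plus strand. Capitals mark the core ACGTG or GCGTG on either strand (CACGT and CACGC on the other), and ALDOC holds 5 matches, a pair of which overlap as CACGTG, and PGK1 holds 3.
ALDOC: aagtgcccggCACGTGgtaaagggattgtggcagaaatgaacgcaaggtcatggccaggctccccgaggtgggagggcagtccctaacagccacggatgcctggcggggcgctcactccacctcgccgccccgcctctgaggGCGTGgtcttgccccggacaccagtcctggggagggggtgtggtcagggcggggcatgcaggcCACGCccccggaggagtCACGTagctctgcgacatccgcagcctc
PGK1: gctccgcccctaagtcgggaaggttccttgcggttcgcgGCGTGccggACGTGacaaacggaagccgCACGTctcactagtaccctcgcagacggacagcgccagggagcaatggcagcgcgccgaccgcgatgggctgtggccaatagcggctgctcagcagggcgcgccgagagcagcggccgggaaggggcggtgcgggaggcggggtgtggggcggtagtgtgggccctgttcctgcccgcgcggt
Of all promoter windows of this length 15172 of 35114 (43.2%) held a match, as did 26 of 48 windows (54.2%) of the 22 glycolysis members that have one. Counted by gene, 12945 of 27303 (47.4%) and 18 of 22 (81.8%) held at least 1, where a gene with several starts has more windows. A match describes letters and shows no binding.

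The glycolysis list, 26 enzymes and transporters, was lower in level and higher in conversion as a group, with ALDOC its only call. Of 23 members tested in CPM, 20 lay below 0, with a median log2 difference of -0.32 against -0.04 over all genes. The groups did not overlap for 15 of the 23, all lower in mutant, against 11.4% of all genes, and 7 had an unadjusted p under 0.05, against 2.38% of all genes in that direction. In conversion 18 of 19 members lay above 0, with a median of 0.22 against -0.02 over all genes, and 10 had an unadjusted p under 0.05 in that direction, against 3.98% of all genes. Both signs were met together by 16 of 19 members (84.2%), against 29.3% of all genes tested in both. Groups were separate in both measures in those directions for 8 of 19 members (42.1%), against 1.64% of all genes. The signs alone were not particular to glycolysis, as 71 of 74 ribosomal protein genes (95.9%) met both. Of those 74, 1 (1.35%) had separate groups in both measures in those directions. Among the 1573 genes with the lowest mean conversion, the median differences were -0.18 in CPM and 0.02 in conversion. Before library medians were set to 0, the groups stood apart in conversion for 4 of the 19 glycolysis members, all higher in mutant. The shares over all genes were 3.78% higher and 2.96% lower. The list was chosen with earlier results of these data known, so these counts are a description. PFKFB2 and SLC16A3 were among the members too low to be tested.

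Enzymes from the aldolase step onward differed by unequal sizes. The aldolases split the phosphorylated sugar, and ALDOA stood at 1173, 898 and 752 CPM with vehicle and 447 and 722 in mutant (-0.70, SE 0.30). Its conversion rate was 1.66%, 2.06% and 2.62% with vehicle and 3.48% and 2.80% in mutant (0.42, SE 0.09, limma adjusted p = 0.273). Both measures were apart between the groups, though the level of mutant B came close to vehicle C. TPI1, which interconverts the triose phosphates, stood at 676, 518 and 456 CPM with vehicle and 269 and 407 in mutant (-0.71), with a conversion difference of 0.31. For GAPDH the differences were -0.31 and 0.22. PKM, which makes pyruvate, stood at 1311, 1426 and 1184 CPM with vehicle and 758 and 934 in mutant (-0.63, SE 0.20), and its rate at 1.02%, 1.39% and 1.92% against 2.35% and 1.68%. The raw rates of PKM overlapped, and after centring the difference was 0.32. ENO1, the main enolase, differed by -0.60 and 0.26. LDHA, the muscle-type lactate dehydrogenase, stood at 347, 385 and 418 CPM with vehicle and 312 and 315 in mutant (-0.28), with a conversion difference of 0.26.

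PGK1, phosphoglycerate kinase, had conversion rates that were also higher in induced wild type. It stood at 504, 530 and 464 CPM with vehicle, 536, 529 and 557 in induced wild type, and 395 and 386 in mutant (-0.35, SE 0.17). The rate was 0.483%, 0.762% and 1.05% with vehicle, 1.77%, 1.24% and 2.72% in induced wild type, and 2.82% and 1.31% in mutant. Every library with doxycycline lay above every vehicle library in rate, while the lower level was seen in mutant alone. The mutant-minus-vehicle difference in rate was 0.91 (SE 0.18, limma adjusted p = 0.273), and the induced-wild-type-minus-vehicle difference, which shares the vehicle libraries, was 0.76.

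The other members tested differed by -0.70 to 0.11 in CPM. HK1 and HK2, the hexokinases, differed by -0.08 and 0.07 in CPM and by 0.06 and 0.15 in conversion. The glucose transporter SLC2A1 was the member below 0 in conversion, at -0.20, with 0.11 in CPM, while the transporter SLC2A3, at 2.25, 3.13 and 3.44 CPM with vehicle and 2.03 and 1.38 in mutant, differed by -0.54 in CPM. PFKFB3, an activator of phosphofructokinase, differed by 0.10 and 0.18, and its relative PFKFB4 by -0.30 in CPM. Among the phosphofructokinases PFKL differed by -0.37 and 0.11, PFKM by -0.27 and 0.02, and PFKP by -0.10 and 0.19. GPI, which follows hexokinase, differed by -0.38 and 0.37, and LDHB, the heart-type lactate dehydrogenase, by -0.21 and 0.02. PGAM1, a phosphoglycerate mutase, differed by -0.32 and 0.32, and the lactate transporter SLC16A1 by -0.32 and 0.10. The enolases ENO2 and ENO3 differed by -0.70 and -0.69 in CPM. SLC2A3, PFKFB4, ENO2 and ENO3 were not tested in conversion. None of these values passed the test.

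**Figure D3:**
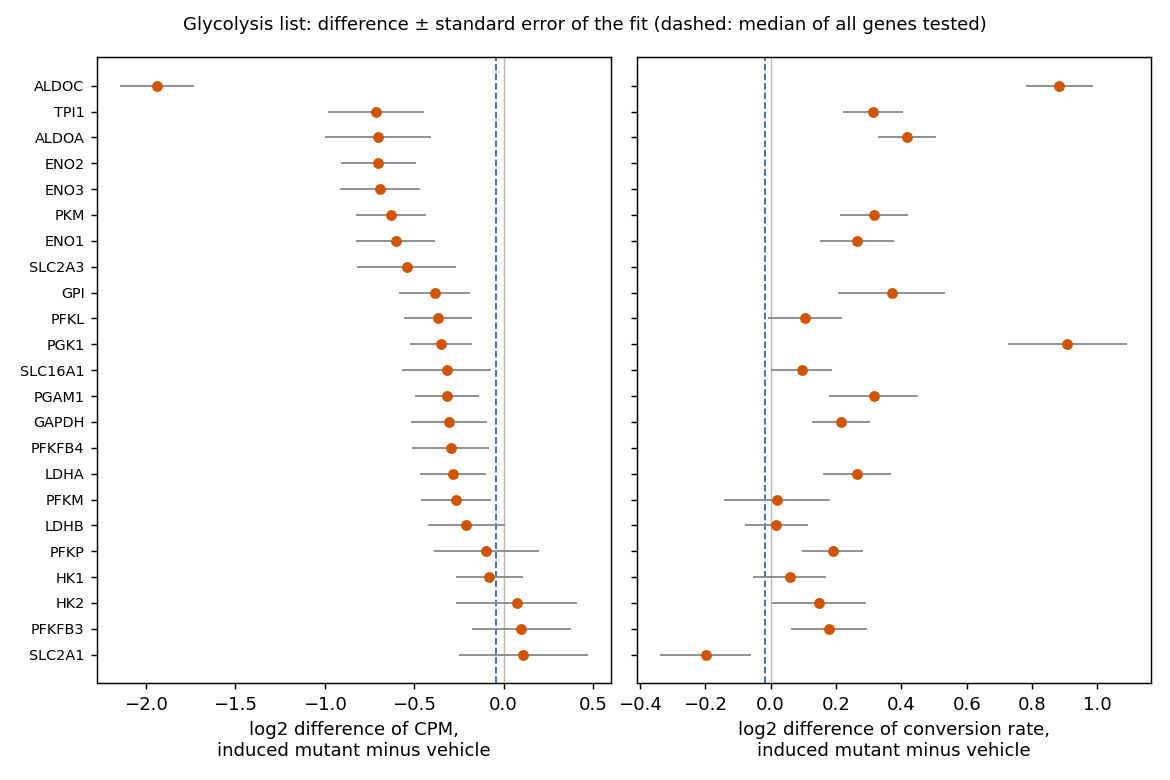
Log2 differences (mutant minus vehicle) of the glycolysis members in CPM at the left and in conversion at the right, with bars of 1 standard error of the fit and a dashed line at the median of all genes tested. Members run from ALDOC at the top (-1.94 in CPM, 0.88 in conversion) to SLC2A1 at the bottom (0.11 and -0.20).

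Summed over the 19 members tested in both measures, the level was 11637, 10780 and 9754 CPM with vehicle, 10222, 10526 and 8525 in induced wild type, and 7009 and 8922 in mutant. Mutant B thus lay above the lowest induced wild type library and under each vehicle library. The median centred conversion of the same genes was -1.50, -1.44 and -1.26 with vehicle, -1.25, -1.24 and -1.16 in induced wild type, and -0.92 and -1.29 in mutant, where mutant B lay within the vehicle range. Each induced wild type library lay above each vehicle library, at the nearest by -1.25 against -1.26, and above mutant B. Leaving out each library of the 2 groups in turn, the list's median stayed between -0.42 and -0.28 in CPM and between 0.18 and 0.27 in conversion.

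**Figure D4:**
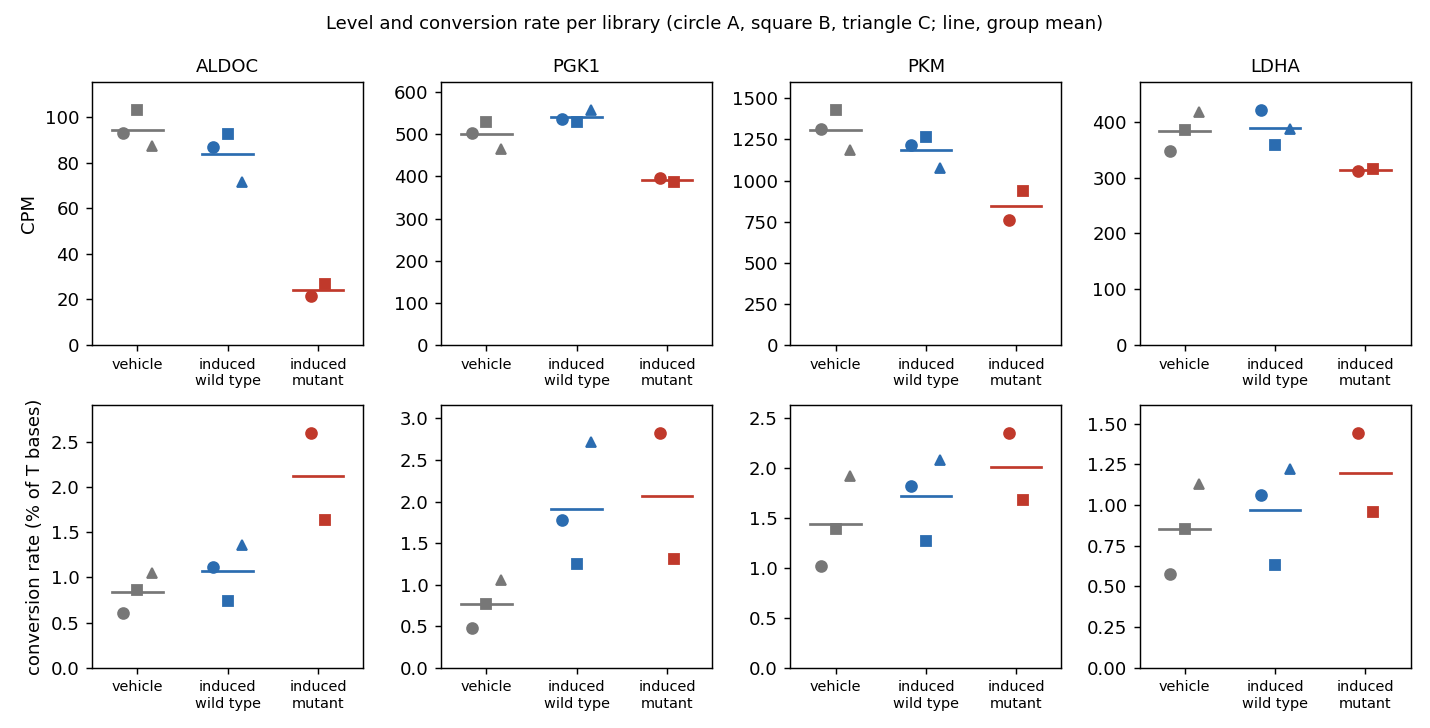
CPM (top) and conversion rate in percent of T bases (bottom) per library for ALDOC, PGK1, PKM and LDHA, with a line at each group mean. The mutant libraries lie lowest in CPM in each panel of the top row, while in the bottom row mutant A lies highest and mutant B (1.64% for ALDOC, 1.68% for PKM) closer to the others.

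Of the hypoxia-inducible genes, a list that shares 4 members with glycolysis, 17 of 25 tested lay below 0 in CPM (median -0.21). In conversion 7 of 11 lay above 0 (median 0.17). The shares over all genes were 57.5% below 0 in CPM and 45.0% above 0 in conversion. BNIP3L, a mitophagy receptor, stood at 14.1, 14.2 and 13.0 CPM with vehicle, 12.2, 10.0 and 12.5 in induced wild type, and 5.69 and 6.64 in mutant (-1.05, SE 0.19, limma adjusted p = 0.328). PDK1, the kinase that inhibits pyruvate dehydrogenase, stood at 8.89, 9.72 and 8.23 CPM with vehicle and 3.86 and 5.52 in mutant (-0.82). VEGFA, the angiogenic growth factor, which the rule for named genes did not take, stood at 7.54, 11.3 and 11.3 CPM against 5.59 and 4.48 (-0.86). The groups of these genes did not overlap and none passed. The list's CPM median was -0.01 without mutant B, -0.09 without vehicle C, -0.12 without vehicle B, -0.33 without mutant A and -0.34 without vehicle A. Over all genes the CPM median in the same order was 0.03, 0.04, -0.01, -0.10 and -0.15. Its conversion median was 0.08 without vehicle A and 0.09 without either mutant library.

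Some genes differed in conversion, among them CTNNAL1, PACS1 and B3GNTL1 at nearly the same level, and several lay higher in induced wild type too. CTNNAL1, an alpha-catenin relative, stood at 19.6, 18.1 and 20.3 CPM with vehicle and 21.7 and 20.8 in mutant. Its rate was 4.35%, 2.88% and 6.70% with vehicle, 7.89%, 12.4% and 9.85% in induced wild type, and 13.8% and 13.2% in mutant (1.44, SE 0.29, limma adjusted p = 0.273). CTNNAL1 had a CPM difference of 0.13, and its rate rank was vehicle, induced wild type, mutant without overlap. PACS1, a sorting adaptor of the trans-Golgi network, had rates of 3.07%, 3.46% and 3.56% with vehicle, 4.33%, 4.61% and 6.46% in induced wild type, and 7.01% and 4.93% in mutant (0.66, with 0.06 in CPM). B3GNTL1, named as a glycosyltransferase, had 1.496%, 1.20% and 1.86% with vehicle, 2.45%, 1.79% and 2.40% in induced wild type, and 3.21% and 2.47% in mutant (0.66, with -0.06 in CPM). LIPE-AS1, antisense to the lipase gene LIPE, had 2.79%, 3.36% and 4.74% with vehicle, 5.93%, 4.78% and 6.93% in induced wild type, and 8.02% and 5.97% in mutant. It came closest to a call after ALDOC (0.80, SE 0.11, limma adjusted p = 0.0579), and without stated strand-aware counting its reads and those of LIPE cannot be told apart. CUX1, a homeobox transcription factor, followed at 0.84, DNM1, a dynamin of endocytosis, at 1.00, and LAPTM4B, a lysosomal membrane protein, at 0.55, each with a limma adjusted p of 0.256. The levels of LIPE-AS1, CUX1, DNM1 and LAPTM4B differed as well, by at least 0.25 in size on the log2 scale.

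Other genes had a lower conversion rate in mutant, of which MFSD11 and CHCHD8 stood at a similar level. MFSD11 had rates of 0.523%, 0.755% and 0.647% with vehicle, 0.669%, 0.577% and 0.711% in induced wild type, and 0.377% and 0.218% in mutant (-0.59, with 0.04 in CPM). CHCHD8, now named COA4, a mitochondrial factor for cytochrome oxidase assembly, had 5.91%, 6.85% and 7.31% with vehicle and 5.62% and 4.63% in mutant (-0.42, with 0.04 in CPM). In conversion NAPRT, an enzyme of NAD synthesis, differed by -0.56 and SPINK4, a protease inhibitor, by -0.54, and their levels are not given here. The non-coding LOC100507217 differed by -0.63 in conversion, and its level differed as well, by at least 0.25 in size on the log2 scale. None of the 5 passed.

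Genes with the largest differences in level mostly had small differences in conversion, as did genes at large. Of the 6289 genes tested in both measures, 29 were higher in CPM by at least 1 on the log2 scale, and 26 of these (89.7%) had a conversion difference under 0.25 in size, against 88% of all 6289. A further 8 were lower by at least 1, and 5 of these (62.5%) had a conversion difference under 0.25, while that of ALDOC was 0.88. Among the genes higher in mutant, mutant A was the highest of the 8 libraries for 23 of the 29, and induced wild type B was the highest wild-type-line library for 20. This set was chosen after its values were seen. AAMDC stood at 287, 229.7 and 431 CPM with vehicle, 545, 993 and 663 in induced wild type, and 1692 and 941 in mutant (2.04, SE 0.37, limma adjusted p = 0.328). Its rate stayed between 1.83% and 2.03% in the 8 libraries, although the library median went from 4.69% to 7.04%. PPEF2, a protein phosphatase of sensory neurons, stood at 15.97, 17.6 and 26.6 CPM with vehicle, 32.7, 58.2 and 42.4 in induced wild type, and 124 and 60.2 in mutant (2.08), at rates of 6.37% to 7.11%. ANKRD30BL stood at 497, 527 and 546 CPM with vehicle, 624, 1098 and 865 in induced wild type, and 4705 and 1471 in mutant (2.33), at rates of 10.2% to 12.05%. INTS4, an Integrator subunit whose gene overlaps AAMDC, differed by 2.09 in CPM and -0.07 in conversion. UNC45B, a myosin chaperone of muscle, differed by 2.02 and -0.06. In each of these 5 genes mutant A was the highest library, followed by mutant B and induced wild type B in either order, and none passed.

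Lower in level with little difference in rate was MIB2, a ubiquitin ligase of Notch signalling, at 15.7, 15.98 and 16.2 CPM with vehicle, 15.99, 15.8 and 16.5 in induced wild type, and 8.29 and 7.76 in mutant. The 6 libraries of the wild-type line lay within 15.7 to 16.5 CPM, yet the difference of -0.91 (SE 0.17) had a limma adjusted p of 0.328. The MIB2 rate differed by -0.13.

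Genes with separate groups in both measures were taken for each sign combination by the size of the weaker statistic, and of these ALDOC alone passed. Higher in both was C1orf14, now named SHCBP1L, which holds a processed HMGN1 pseudogene within its span in the annotation. It stood at 13.6, 12.5 and 14.3 CPM with vehicle, 62.6, 45.0 and 103 in induced wild type, and 53.7 and 27.6 in mutant (1.45). Its rate was 0.483%, 3.26% and 2.04% with vehicle, 9.76%, 7.01% and 12.7% in induced wild type, and 10.5% and 6.86% in mutant (2.02, SE 0.37, limma adjusted p = 0.256). The doxycycline libraries of both lines lay above the vehicle libraries in both measures. MAD1L1, a spindle checkpoint protein, differed by 0.68 and 0.37, PMF1, a kinetochore protein, by 0.67 and 0.73, and TBC1D22A, of the Rab GTPase-activating family, by 1.00 and 0.47.

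Among genes higher in level and lower in rate, KCNQ5, a potassium channel, differed by 0.93 and -0.24 on the log2 scale, and FAM58A, a cyclin, by 0.43 and -0.31. MTRNR2L9, a nuclear copy of mitochondrial sequence whose reads are uncertain for that reason, differed by 0.48 and -0.28. Lower in level and higher in rate, beside ALDOC, were KIAA0195, now named TMEM94 (-0.76 and 0.45), RNASET2, a lysosomal ribonuclease (-0.80 and 0.73), and S100A10, a partner of annexin (-0.90 and 0.62). Lower in both were ITM2B, a membrane protein whose fragments form amyloid (-0.62 and -0.28), the non-coding CRNDE (-0.54 and -0.51) and the readthrough gene CHKB-CPT1B (-0.70 and -0.26).

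The table of converted reads gave no call and leaned the other way from the levels. Of 5736 genes 0 (0%) passed in limma, 667 (11.6%) had an unadjusted p under 0.05, and 23 (0.401%) passed with a prior variance that follows the mean, 22 higher (0.384%) and 1 lower (0.0174%). Mutant and vehicle libraries stood apart for 28.2% of the genes, 1172 of them higher in mutant (20.4%) and 448 lower (7.81%). The median log2 difference was 0.17, and with library medians set to 0 there were 11 calls, 10 higher and 1 lower. SH2B3, the adaptor that restrains JAK2 signalling in blood cells, stood at 0.530, 1.59 and 2.27 FPKM with vehicle, 4.00, 6.84 and 6.96 in induced wild type, and 14.5 and 9.45 in mutant. The SH2B3 difference was 2.44 in converted FPKM (limma adjusted p = 0.0834), 0.83 in CPM and -0.23 in conversion. TMEM120B (2.14), HS6ST1 (2.37), FAM53B (2.43) and ARID3A (2.36) shared that adjusted p and lay higher in induced wild type than with vehicle as well. IL6R, a chain of the interleukin-6 receptor, was listed at 5.76, 4.76 and 2.63 FPKM with vehicle, 3.33, 7.80 and 4.72 in induced wild type, and 0 and 0 in mutant. Its level in all reads was 10.1 and 6.46 CPM in mutant against 6.30, 11.6 and 8.06 with vehicle, which overlapped, and its untested conversion rate was 3.20% and 3.30% against 3.71%, 3.52% and 3.26%. The tables thus disagreed for IL6R, whose 0 values are given as listed. For CRNDE converted FPKM differed by -1.55, for DERL1, a factor of protein export from the endoplasmic reticulum, by -1.31, for CPT1B, the muscle carnitine palmitoyltransferase, by -1.37, and for ZNF286B by -2.58.

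In conversion the short-lived regulators leaned opposite to glycolysis. The list of immediate early genes and of transcripts with AU-rich decay signals had 13 members tested in conversion, of which 0 lay above 0, with a median of -0.14 against -0.02 over all genes. The centred groups did not overlap for 7 of 13, all lower in mutant, against 13.8% of all genes, and none passed. TNFAIP3, an inhibitor of NF-kappaB, had rates of 4.21%, 6.35% and 5.49% with vehicle and 4.64% and 4.04% in mutant (-0.33). DUSP1, a MAP kinase phosphatase, had 8.98%, 7.97% and 9.63% against 7.66% and 6.76% (-0.35), and MCL1, a survival factor of the BCL2 family, differed by -0.17. Small nucleolar RNA host genes (12 of 14 below 0, median -0.16, 5 of 14 apart and lower) and SR splicing factors (13 of 16 below 0, median -0.12, 6 of 16 apart and lower) leaned the same way, with SNHG1 at -0.22 and SRSF10 at -0.41. Before centring, fewer stood apart and lower: 2 of 13 immediate early genes, 0 of 14 host genes and 1 of 16 SR genes, against 2.96% of all genes. Over omissions of 1 library of the 2 groups the centred medians of these lists ranged, in that order, from -0.20 to -0.12, from -0.18 to -0.10 and from -0.14 to -0.06. Across all genes, split by mean conversion into 4 parts of 1572 or 1573 genes from the lowest to the highest, the median conversion difference was 0.02, 0.00, -0.03 and -0.06, and the median CPM difference -0.18, -0.10, -0.02 and 0.07.

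Ribosomal protein genes lay lower in level, with large differences between libraries of 1 group. All 78 of them had a CPM difference below 0 (median -0.27), 0 passed, and their conversion median was 0.08 with 71 of 74 above 0. The sum over the 74 was 80358, 61442 and 56422 CPM with vehicle, 60164, 61899 and 45098 in induced wild type, and 44899 and 63155 in mutant. Vehicle A stood highest, and mutant B lay within the vehicle range. Without mutant A the CPM median was -0.03, with 29 of 78 above 0, without vehicle A it was -0.13, and without mutant B -0.53. The conversion median was 0.05 without vehicle B, with 59 of 74 above 0, and 0.13 without vehicle C, and with a pseudocount of 2 it was 0.02. The p53 targets had a CPM median of 0.21 with 22 of 26 above 0, which was 0.01 without mutant A, and mitosis genes a median of -0.19 with 25 of 30 below 0, which was 0.00 without mutant B. Respiratory chain genes went from -0.12 (59 of 71 below 0) to 0.09 without mutant A, and precursor B-cell transcription factors from 0.10 to -0.10 without vehicle A. The last 4 CPM medians thus moved to within 0.01 of 0, or past it, without 1 library, while that of the ribosomal proteins stayed below 0. The CPM median over all genes moved too, from -0.04 to -0.10 without mutant A, -0.15 without vehicle A and 0.03 without mutant B. Without mutant A or without vehicle A the ribosomal median lay above that of all genes, so their lower level was not kept. In the omissions given, the p53 targets and the precursor B-cell transcription factors stayed above the all-gene median.

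Among the relatives of the induced gene, HMGN2 stood at 152, 167 and 153 CPM with vehicle and 102 and 123 in mutant, groups that did not overlap (-0.48, SE 0.18). The level of HMGN2 was 155, 143 and 145 CPM in induced wild type, also above both mutant libraries. HMG20B, a subunit of a histone demethylase complex, had a conversion difference of -0.37 and HMGN5 of -0.29. Of the 11 tested HMG proteins none passed, and the CPM median was -0.15 (8 below 0), which turned to 0.06 without mutant A. Of the 18 tested genes of the Down syndrome critical region none passed (CPM median -0.07, conversion median -0.01), and their CPM median ranged from -0.25 without vehicle A to 0.03 without mutant B. Of the pre-B receptor and B-cell surface proteins 14 of 21 lay below 0 in CPM, against 57.5% of all genes. Their median was -0.08 against -0.04 over all genes, and ranged from -0.23 without mutant B to -0.04 without mutant A. They included CD9 at -0.58 and MME, also known as CD10, at -0.47 in CPM, with neither passing. Matrix genes other than COL5A1 included SPARC at -0.79 and COL7A1 at -0.68, where 10 of 12 tested members lay below 0 (median -0.21, and -0.34 without vehicle A, -0.13 without mutant B and -0.08 without vehicle C). Targets of ATF4, the unfolded protein response, heat shock chaperones, interferon-stimulated genes, S phase genes, Polycomb proteins and acetyltransferases had medians within 0.10 of 0 in both measures, and none of their members passed. These CPM medians were not stable to the omission of 1 library. For the acetyltransferases the median of 0.10 became -0.19 without vehicle A (21 of 27 below 0) and 0.34 without mutant B (24 of 27 above 0), and for Polycomb proteins that of -0.07 became -0.19 without vehicle A (26 of 31 below 0) and 0.06 without mutant B. Over the other 5 lists the values ranged from -0.17 to 0.22. In the same omissions the CPM median over all genes, -0.04 with all libraries, was -0.15 without vehicle A and -0.10 without mutant A. It was 0.03 without mutant B and 0.04 without vehicle C. For the acetyltransferases and Polycomb proteins, the list and all genes moved in the same direction without vehicle A and without mutant B.

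**Figure D5:**
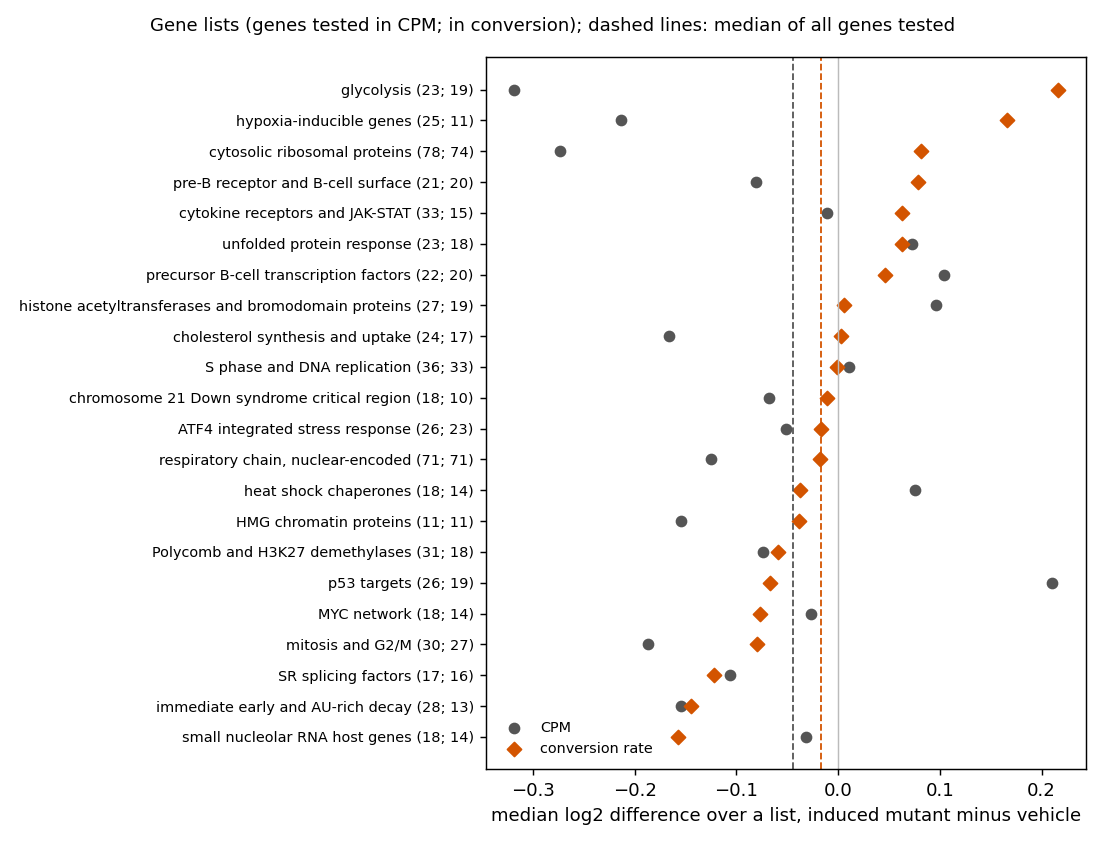
Median log2 difference (mutant minus vehicle) in the 22 gene lists with at least 10 members tested in conversion, in CPM (grey circles) and in conversion (orange diamonds), with dashed lines at the median of all genes tested and the number of genes tested in each measure in brackets. Of the lists drawn, glycolysis lies furthest left in CPM (-0.32) and furthest right in conversion (0.22), and small nucleolar RNA host genes (-0.16) and the immediate early list (-0.14) lie at the low end in conversion.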

How the data were processed

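SLAM-seq libraries of NALM6 cells were made from 4 µg of RNA with a stranded mRNA kit, per the labels' protocols, and the genome build was hg19 (GRCh37), per the submitters' processing notes. Neither the aligner, the conversion caller nor strand use is given in the sources used here. CPM columns, as deposited, are a signal per RefSeq transcript, and 100% of values were whole reads within 0.1 read. The deposited CONVERSION columns, per the file headers, are a fraction, treated as converted T bases per T base, since 12527 of 29863 transcripts with 1 read had a rate between 0 and 1. The authors' table of converted reads is in FPKM with unknown depth and was used as deposited.

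Per gene the transcript with the highest mean was kept (27408 genes, 6990 in converted reads). The 503 genes with an accession only are not named. Gene names, chromosomes and neighbours came from RefSeq tables of GRCh38.p14 and pseudogenes from GENCODE 29, while the files give no coordinates. In limma 3.58.1 (R 4.3.3), with all 8 libraries in 1 model, log2(CPM + 1) was tested at a mean of at least 1 CPM, log2(percent + 0.5) at a mean of at least 10 CPM with library medians set to 0, and log2(FPKM + 1) at a mean of at least 1, each with Benjamini-Hochberg adjustment over all genes and a threshold of 0.05. On the recovered reads edgeR 4.0.16 and DESeq2 1.42.0 served as alternatives. The scripts were tested on simulated data. Groups were taken from the labels.

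Named genes are HMGN1, for each measure the largest changes among genes that pass or else the 5 smallest p-values in a direction, 4 genes for each sign combination of CPM and conversion, the 5 strongest with the other measure under 0.25, and up to 3 members of a list for each measure. The other glycolysis members and the genes of CPM differences of at least 1 were added after their values were seen. VEGFA, a member of the hypoxia list that these rules do not take, was named too. Not every gene that these rules take is reported here. The 26 lists (783 entries), the members and the tests were chosen with earlier results of these data known.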

Additional observations from a re-analysis of the deposited data

How the results depend on the processing

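Of the 4 CPM calls, 0 were left with the 2 groups alone, 1 with a pseudocount of 5 and 0 to 4 without 1 library, and DESeq2 called 74 (48 higher, 26 lower). ALDOC kept its direction in each of 23 alternatives for CPM (-2.09 to -1.78). The conversion call was lost (0 genes) with the 2 groups alone, pseudocounts of 0.1 and 2, no centring, the arcsine scale, the mean-dependent prior and without 7 of 8 libraries taken singly (range 0 to 1), while depth as a covariate and quantile normalization gave 2 and another gene than ALDOC passed without vehicle B. Converted FPKM, with 0 calls, gave 17 with depth as a covariate, 1 and 50 with pseudocounts of 0.1 and 5, 3 at a mean of at least 5, 11 with medians set to 0, 21 with quantile normalization, 23 with the mean-dependent prior (added after seeing the data) and 0 without 1 library. The replicate letters pair no samples in the labels, and same-letter deviations correlated between -0.645 and 0.649 in CPM, so that with the replicate block 2 genes were called in CPM, 4 in conversion and 0 in FPKM. The median conversion difference ranged from -0.38 to 0.97 points without 1 library and was -0.15 without vehicle A. HMGN1 ranged from 36.3 to 62.0 CPM, 0.531 to 3.18 points and -2.355 to -0.557 FPKM.

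Differences near 0 changed sign in some settings. Without 1 library the CPM differences ranged from -0.13 to 0.039 for B3GNTL1, -0.21 to 0.26 for MFSD11, -0.12 to 0.16 for PACS1, -0.025 to 0.11 for CHCHD8, -0.19 to 0.22 for HK2, -0.38 to 0.080 for PFKP, -0.15 to 0.35 for PFKFB3, -0.43 to 0.0074 for LDHB and -0.23 to 0.31 for SLC2A1. The conversion differences ranged from -0.20 to 0.090 for PPEF2, -0.27 to 0.13 for AAMDC, -0.041 to 0.38 for BNIP3L, -0.32 to 0.15 for ANKRD30BL, -0.0046 to 0.12 for HK1, -0.021 to 0.32 for HK2, -0.059 to 0.27 for PFKL, -0.093 to 0.13 for PFKM and -0.022 to 0.045 for LDHB. B3GNTL1 stood at 0.013 in CPM with gene sums scaled alike, MFSD11 at -0.028 with the mean over a gene's transcripts and PFKP at 0.020 with the replicate block. In conversion PPEF2 stood at 0.0087 and AAMDC at 0.0018 with no centring, PFKM at -0.0034 with quantile normalization and -0.0015 at a mean of at least 30 CPM, and LDHB at -0.013 with a pseudocount of 2, -0.040 with quantile normalization, -0.0033 at 30 CPM and -0.0018 on the arcsine scale. The cause was not tested.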
